A study of Mus musculus with 12 samples.

Results

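Lmna, Lmnb1, Lmnb2, Lbr, Emd, Tmpo, Sun1, Sun2, Syne1 and Syne2 encode the core of the nuclear lamina and of the bridge that ties it to the cytoskeleton, and their RNA was followed in mouse cardiac fibroblasts after depletion of histone H1.0. The 10 genes were taken by name, for what their proteins are known to do, out of 35523 genes in the tables. Earlier results of these data were known when they were chosen. All 10 passed the count minimum, along with 18028 genes in total that were tested. Their mean normalized counts in a group were between 220 (Lmnb2) and 13600 (Lmna).

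Fibroblasts came by enzymatic digestion from hearts of adult wild-type C57BL/6J mice of both sexes and were grown, transfected with siRNA and kept without growth serum before treatment. Cells were given siRNA against H1.0 (gene symbol H1f0) and then TGF-β at 10 ng/ml (H1.0 siRNA with TGF-β), the same siRNA and vehicle (H1.0 siRNA with vehicle), scrambled siRNA and TGF-β (scramble with TGF-β), or scrambled siRNA and vehicle (scramble with vehicle). Each of these 4 groups had 3 libraries of RNA depleted of ribosomal RNA. All groups went through transfection, and no untransfected cells were used here.

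The lamina is a filament mesh of A-type lamins (lamins A and C, both from Lmna) and B-type lamins (Lmnb1 and Lmnb2) under the inner nuclear membrane. Lamin B receptor, emerin and the lamina-associated polypeptides from Tmpo anchor the mesh and peripheral chromatin to that membrane, while SUN proteins of the inner membrane and nesprins of the outer membrane join across the lumen as the LINC complex (linker of nucleoskeleton and cytoskeleton) and reach actin, microtubules and intermediate filaments. The proportion of A-type to B-type lamin is known to go with tissue stiffness, and cardiac fibroblasts on stiff substrates or under TGF-β take on the contractile state of myofibroblasts.

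Several library-wide facts touch the results. Library totals of estimated counts were between 19.9 M and 36.3 M, and the 3 libraries of H1.0 siRNA with TGF-β and replicate 3 of H1.0 siRNA with vehicle were the deepest. Counts of H1f0 were from 510.3 to 1074.8 in the 6 H1.0 siRNA libraries, against 2514.7 to 3032.8 in the 6 scramble libraries (log2 fold change -1.94, SE 0.22, adjusted p = 5.8e-05 with TGF-β, and -1.63, SE 0.22, adjusted p = 0.0002 with vehicle, by edgeR). Replicate 3 had the least H1f0 of each H1.0 siRNA group. Acta2, the smooth muscle actin of myofibroblasts, rose with TGF-β after either siRNA (log2 fold change 2.49, SE 0.14, adjusted p = 2.9e-06 in H1.0 siRNA cells and 1.75, SE 0.13, adjusted p = 2.1e-05 in scramble cells). Postn, the matrix protein periostin, rose likewise (1.89, SE 0.18, adjusted p = 5.3e-05 in H1.0 siRNA cells and 2.22, SE 0.19, adjusted p = 3.9e-05 in scramble cells). The siRNA lowered Acta2 (-1.8, SE 0.13, adjusted p = 3.6e-06 with TGF-β and -2.54, SE 0.14, adjusted p = 5.2e-07 with vehicle). It lowered Postn with TGF-β (-0.9, SE 0.18, adjusted p = 0.0022), and the value with vehicle was -0.57 (SE 0.18, adjusted p = 0.027), not called. The 10 fibroblast markers summed to between 14100 and 20900 TPM in every library, with collagens highest. The siRNA raised 1 and lowered 3 of them with TGF-β (24.3% of all genes called) and raised 2 and lowered 1 with vehicle (24.7%). Thy1 fell in both media (log2 fold change -2.97, SE 0.45, and -2.18, SE 0.44), while Dcn rose (0.85 and 0.5, SE 0.09 each). TGF-β raised 2 and lowered 5 in H1.0 siRNA cells (15.7%) and raised 1 and lowered 3 in scramble cells (18.4%). Pdgfra fell in both (-2.01, SE 0.28, and -1.44, SE 0.27). The 12 macrophage markers were also present, at 714 to 1080 TPM in H1.0 siRNA with TGF-β, 1340 to 1430 TPM in H1.0 siRNA with vehicle, 1160 to 1230 TPM in scramble with TGF-β and 1570 to 1750 TPM in scramble with vehicle, with none of the 12 at 0 in any group. Their sums were lower with TGF-β than with vehicle after either siRNA, and lower with H1.0 siRNA than with scramble in either medium, without overlap. Lyz2 had the highest level of these markers in each group, up to 1010 TPM, and no other exceeded 190 TPM. Single markers did not all follow the sums. Under vehicle the siRNA raised Adgre1 (log2 fold change 0.9, SE 0.18) and Itgam (0.67, SE 0.15), whereas C1qb fell (-0.72, SE 0.17). Under TGF-β the siRNA calls were C1qb (-0.94, SE 0.18) and Lyz2 (-0.54, SE 0.13). The median over the 12 was 0.1 under vehicle and -0.01 under TGF-β. Of 9 cardiomyocyte markers 6 stayed under 1 TPM, and the sum of the list (14.7 to 24.2 TPM in H1.0 siRNA cells, against 132 to 197 TPM in scramble cells) was mostly Tnnt2, cardiac troponin T, with no other marker of the list above 4.36 TPM in any library. Mural cell markers (7 genes) summed to 11.8 to 29 TPM in H1.0 siRNA with TGF-β and 11.4 to 22.9 TPM in H1.0 siRNA with vehicle. In scramble cells they summed to 30.5 to 74.9 TPM with TGF-β and 24.6 to 58.6 TPM with vehicle. The sums were lower with the siRNA in either medium without overlap. For the siRNA edgeR called 0 of these 7 in either medium, where 24.3% and 24.7% of all genes were called. With the replicate number as a block, 4 were lower with TGF-β and 5 with vehicle (33.6% of all genes called in each). Endothelial markers summed to at most 78.9 TPM and lymphoid and red blood cell markers to at most 0.794 TPM. In bulk RNA, fewer cells of a type and less RNA per cell cannot be told apart.

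Depletion of H1.0 was accompanied by changes of opposite sign within the lamina. Under TGF-β, edgeR's quasi-likelihood test called 4 of the 10 genes (adjusted p under 0.01): Lmna rose, and Lmnb2, Tmpo and Syne1 fell. Of all genes tested 24.3% were called in that comparison. Under vehicle the siRNA called 6 of the 10, with Lmna, Lbr and Sun1 higher and Lmnb2, Tmpo and Syne1 lower, where 24.7% of all genes were called. With the replicate number as a block the count was 5 with TGF-β (33.6% of all genes) and 6 with vehicle (33.6%). The 4 genes called with TGF-β were called in the same direction with vehicle. The median log2 fold change over the 10 genes was -0.12 with TGF-β and -0.06 with vehicle, beside 0.04 and 0 over all genes tested. Those 2 comparisons use separate libraries, but each shares a group of 3 libraries with each TGF-β comparison.

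Lamin genes were called with TGF-β as well. In H1.0 siRNA cells TGF-β called 3 of the 10, with Lmna and Lmnb2 higher and Tmpo lower, where 15.7% of all genes were called. In scramble cells 5 of the 10 were called, with Lmna, Lmnb2, Lbr and Emd higher and Sun2 lower, where 18.4% of all genes were called. The count in H1.0 siRNA cells was 1 without replicate 2 of H1.0 siRNA with vehicle, and that in scramble cells was 2 without replicate 1 or 2 of scramble with TGF-β or of scramble with vehicle. The block called 4 in H1.0 siRNA cells (26.8% of all genes) and 7 in scramble cells (28.4%). Over the 10 genes the median log2 fold change was 0.03 in H1.0 siRNA cells and 0.23 in scramble cells, against -0.01 over all genes in each. Without the block Lmnb1 and Syne2 were called in none of these 4 comparisons, and the other 8 in at least 1.

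**Figure D1:**
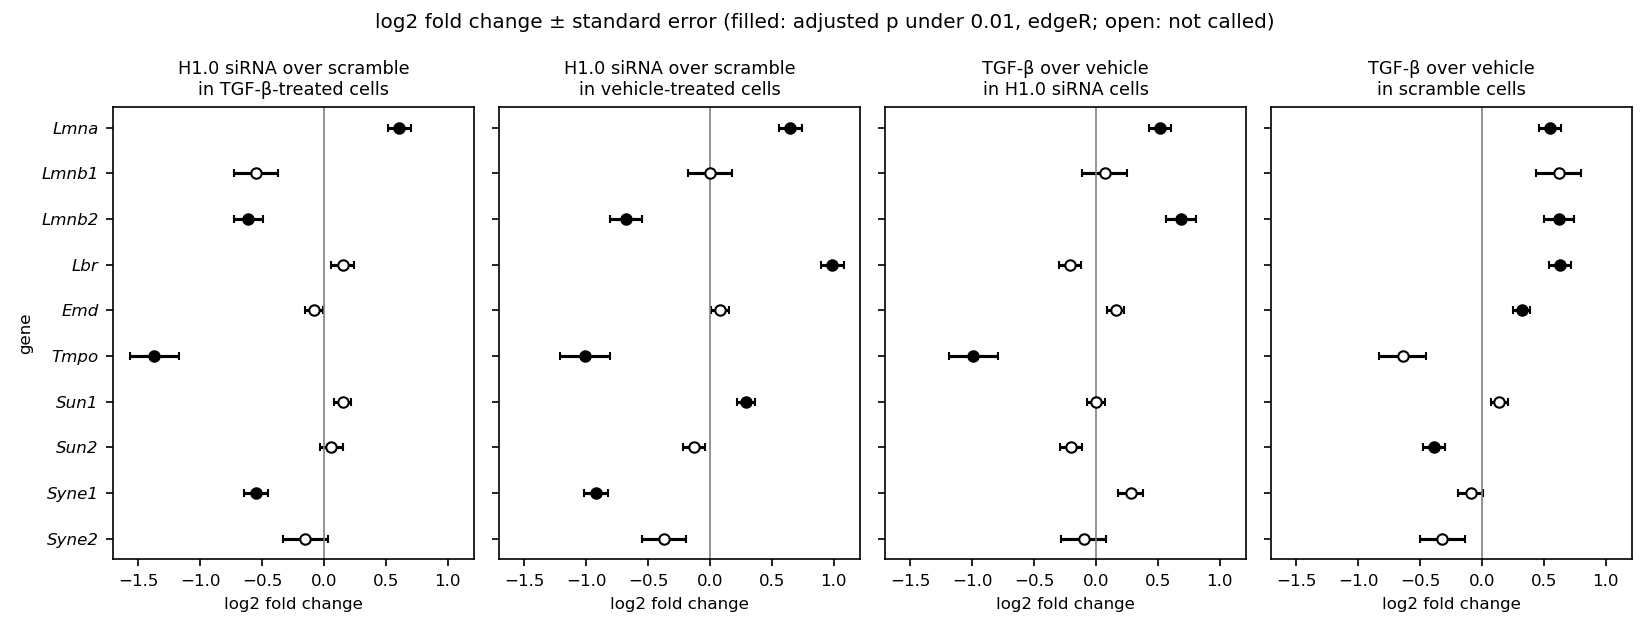
log2 fold change (x axis) of each of the 10 genes (y axis) in the 4 comparisons, from edgeR, with standard errors as bars. Filled points are calls at an adjusted p under 0.01. Lmna lies right of 0 in all 4 panels and Tmpo left of 0 in all 4, while Lmnb2 lies left of 0 for the siRNA and right of 0 for TGF-β.

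Lmna, on chromosome 3 of GRCm38 from 88480147 to 88509956 on the minus strand, gives lamin A and lamin C by alternative 3' ends. Both share their first 568 codons, and the coding sequences part within exon 10. Counted from the first letter that differs, which need not be the splice site, lamin C ends there with its own 17 coding bases. Lamin A runs on for 290 bases to a CaaX box, the 4 residues whose cysteine is farnesylated, which the B-type lamins carry too. Stretches of coding sequence (GRCm38, minus strand, 60 bases each) are shown for the place where the 2 products part and for the CaaX box of a B-type lamin, which lamin C lacks. In lamins C and A capitals mark the bases from the first letter that differs. In lamin B2 they mark the 4 codons of the CaaX box, before its stop codon.
lamin C end, Lmna-203, chr3:88483300-88483359, exon 10: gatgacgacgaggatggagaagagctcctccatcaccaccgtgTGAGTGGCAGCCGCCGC
lamin A at the split, Lmna-201, exons 10 and 11: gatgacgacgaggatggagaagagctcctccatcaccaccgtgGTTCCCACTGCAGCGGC
lamin B2 end, Lmnb2-204, chromosome 10, exons 11 and 12: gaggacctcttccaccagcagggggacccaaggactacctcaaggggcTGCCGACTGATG

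By mean normalized count Lmna was the most abundant of the 10 genes in every group. In replicate 1 of scramble with vehicle, Syne2 (6295.0) and Tmpo (6290.6) lay above it. Normalized counts (scaled to the mean library total) of Lmna were 14209.5, 14529.3 and 12104.8 in H1.0 siRNA with TGF-β, 10100.7, 9014.2 and 9397.7 in H1.0 siRNA with vehicle, 9270.7, 9329.1 and 8091.4 in scramble with TGF-β, and 5881.1, 6203.4 and 6128.6 in scramble with vehicle. All 3 libraries of H1.0 siRNA with TGF-β lay above every other library, all 3 of scramble with vehicle lay below, and the 2 middle groups overlapped. The siRNA effect was a log2 fold change of 0.61 (SE 0.09, adjusted p = 0.00022) with TGF-β and 0.65 (SE 0.09, adjusted p = 0.00016) with vehicle. TGF-β gave 0.52 (SE 0.09, adjusted p = 0.0013) in H1.0 siRNA cells and 0.55 (SE 0.09, adjusted p = 0.0008) in scramble cells. No alternative processing and no left-out library ended any of these 4 calls (adjusted p at most 0.0091). The interaction was -0.03 (SE 0.12, adjusted p = 0.96), with an approximate 95% interval of -0.27 to 0.2 for the difference between the effects.

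Lmnb1 on chromosome 18 encodes lamin B1, which is permanently farnesylated and which many cell types lose in senescence. Its counts were 427.5, 364.8 and 601.9 in H1.0 siRNA with TGF-β, 493.4, 356.3 and 479.9 in H1.0 siRNA with vehicle, 646.7, 643.9 and 754.7 in scramble with TGF-β, and 400.8, 424.4 and 506.0 in scramble with vehicle. All 3 scramble libraries with TGF-β were above the other 9, and the remaining groups overlapped. The siRNA gave -0.55 (SE 0.18, adjusted p = 0.033) with TGF-β, which was not called. With the replicate number as a block the adjusted p was 0.0019, and without replicate 3 of H1.0 siRNA with TGF-β, the highest library of its group, it was 0.0032. With vehicle the difference was 0 (SE 0.18, adjusted p = 1), with an approximate 95% interval from -0.36 to 0.36. TGF-β gave 0.07 (SE 0.18, adjusted p = 0.83) in H1.0 siRNA cells and 0.62 (SE 0.18, adjusted p = 0.024) in scramble cells, the second of which was not called either. There the adjusted p was 0.0015 with the block, 0.0076 by DESeq2, 0.0083 with the 6 scramble libraries alone and 0.0065 without that same replicate 3.

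Lmnb2, on chromosome 10 from 80901203 to 80918245 on the minus strand, encodes lamin B2. Counts were 349.9, 343.2 and 368.2 in H1.0 siRNA with TGF-β, 240.5, 201.2 and 217.4 in H1.0 siRNA with vehicle, 596.2, 537.7 and 490.2 in scramble with TGF-β, and 318.0, 318.9 and 421.3 in scramble with vehicle. H1.0 siRNA with vehicle was lowest and scramble with TGF-β highest, with no overlap with any other group, while H1.0 siRNA with TGF-β lay inside the range of scramble with vehicle. Lmnb2 fell with the siRNA (-0.61, SE 0.12, adjusted p = 0.0023 with TGF-β and -0.68, SE 0.13, adjusted p = 0.0014 with vehicle). It rose with TGF-β (0.69, SE 0.12, adjusted p = 0.0021 in H1.0 siRNA cells and 0.62, SE 0.12, adjusted p = 0.0032 in scramble cells). The vehicle call held without any 1 library. The siRNA call with TGF-β was lost without replicate 1 of scramble with TGF-β or without replicate 1 or 2 of H1.0 siRNA with TGF-β (adjusted p up to 0.012). The TGF-β call was lost in H1.0 siRNA cells without replicate 2 of H1.0 siRNA with vehicle (adjusted p = 0.011), and in scramble cells without replicate 1 or 2 of either scramble group (up to 0.018) and with the 6 scramble libraries alone (0.016).

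**Figure D2:**
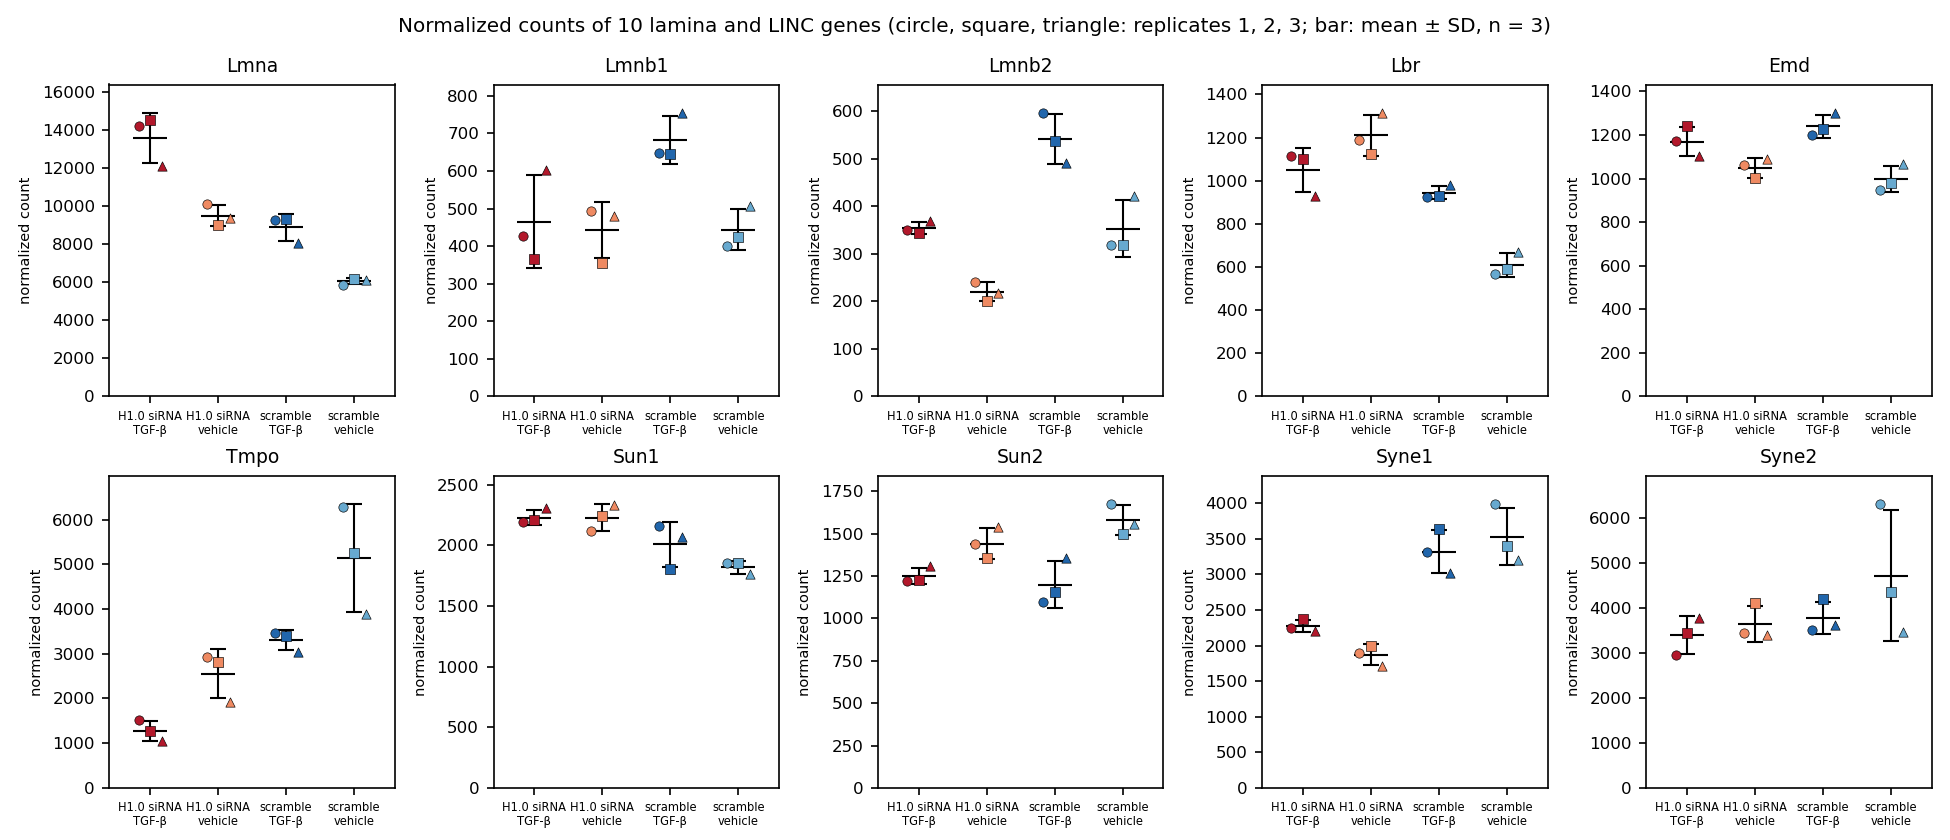
Normalized counts (y axes, from 0) of the 10 genes in the 4 groups (x axes), with replicates 1, 2 and 3 as circle, square and triangle and the mean ± SD (n = 3) as a bar. The 4 groups of Tmpo do not overlap, from 1057.1 to 1510.6 in H1.0 siRNA with TGF-β up to 3890.9 to 6290.6 in scramble with vehicle, and those of Syne2 all overlap.

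TPM, which corrects for transcript length, allows the lamins to be set against each other. The ratio of Lmna to the sum of Lmnb1 and Lmnb2 in TPM was 21.1, 22.2 and 13.9 in H1.0 siRNA with TGF-β, 15.7, 18.6 and 16.2 in H1.0 siRNA with vehicle, 8.59, 8.33 and 7.17 in scramble with TGF-β, and 9.33, 8.32 and 7.22 in scramble with vehicle. Every H1.0 siRNA library was above every scramble library, and the TGF-β and vehicle groups overlapped after either siRNA. Mean ratios were 19.1 ± 4.51 and 16.9 ± 1.54 in H1.0 siRNA cells (TGF-β and vehicle) and 8.03 ± 0.755 and 8.29 ± 1.06 in scramble cells (SD, n = 3 each). No test was made of these ratios, which are of RNA and not of lamin protein. Within the B-type lamins, the ratio of Lmnb2 to Lmnb1 was lowest in H1.0 siRNA with vehicle (0.381 to 0.496), against 0.515 to 0.898 in H1.0 siRNA with TGF-β, 0.608 to 0.918 in scramble with TGF-β and 0.642 to 0.71 in scramble with vehicle.

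**Figure D3:**
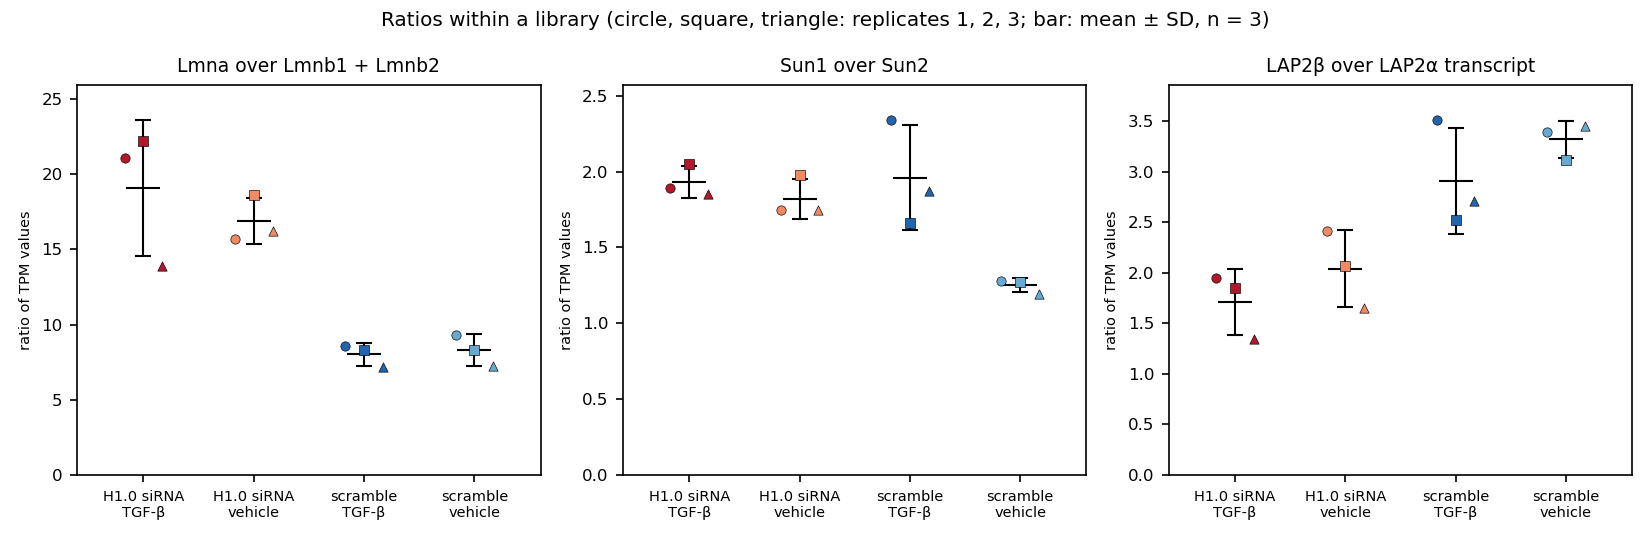
Ratios of TPM values within each library (y axes, from 0) in the 4 groups (x axes), with replicates 1, 2 and 3 as circle, square and triangle and the mean ± SD (n = 3) as a bar. The ratio of Lmna to both B-type lamins is from 13.9 to 22.2 in the 6 H1.0 siRNA libraries, against 7.17 to 9.33 in the 6 scramble libraries.

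Lamin A (Lmna-201, 665 codons) and lamin C (Lmna-203, 574 codons) together made up nearly all Lmna transcripts by TPM. Lamin C was at 219.9, 207.5 and 201.7 TPM in H1.0 siRNA with TGF-β, 156.3, 119.6 and 141.1 TPM in H1.0 siRNA with vehicle, 132.4, 138.9 and 109.8 TPM in scramble with TGF-β, and 85.3, 77.4 and 82.1 TPM in scramble with vehicle. These levels were higher in H1.0 siRNA with TGF-β than in any other library, and lowest in scramble with vehicle. In a fit over 69202 transcripts Lmna-203 rose with the siRNA (0.8, SE 0.11, adjusted p = 0.0024 with TGF-β and 0.85, SE 0.11, adjusted p = 0.0016 with vehicle) and, in scramble cells, with TGF-β (0.72, SE 0.11, adjusted p = 0.0071). In H1.0 siRNA cells TGF-β gave 0.66 (SE 0.11, adjusted p = 0.011), called with the replicate block (0.0065). Lamin A was at 167.2, 181.1 and 127.3 TPM in H1.0 siRNA with TGF-β, 135.0, 135.3 and 116.4 TPM in H1.0 siRNA with vehicle, 122.8, 128.6 and 108.7 TPM in scramble with TGF-β, and 84.5, 94.5 and 88.9 TPM in scramble with vehicle. Of the comparisons made, Lmna-201 was called for the siRNA under vehicle (0.61, SE 0.11, adjusted p = 0.0072). The ratio of lamin C to lamin A was 1.35 ± 0.221 and 1.08 ± 0.176 in H1.0 siRNA cells (TGF-β and vehicle) and 1.06 ± 0.0398 and 0.917 ± 0.096 in scramble cells (SD, n = 3 each). H1.0 siRNA with TGF-β was above both scramble groups in this ratio and the other groups overlapped or met, and a change of the ratio was not tested.

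Exons of other genes overlap some of these. Gm14686 shares 343 of 2517 exon bases with Emd on the same strand and was at 0 to 6.92 TPM, and Dnah14 shares 440 of 4761 with Lbr on the opposite strand and was at 0 to 0.328 TPM. Tmpo, Sun1 and Sun2 overlap antisense genes over 244, 302 and 147 bases. The sources used here do not state the strand setting of the counting, so values of these genes carry that limit.

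Of 96 transcripts of the 10 genes 76 were tested. The siRNA called 3 of them with TGF-β and 5 with vehicle, where 2.6% and 3% of all transcripts were called. With the replicate block these counts were 6 and 6, against 3.52% and 3.9% of all transcripts. TGF-β called 0 in H1.0 siRNA cells and 2 in scramble cells, where 1.25% and 1.44% of all transcripts were called, and the block called 2 in each, against 2.63% and 2.7%. The interaction called 0 of them by edgeR, against 0.00867% of all transcripts, and 0 with the block, against 0%. The reads that isoforms share were divided by Salmon, and the error of that division is not in these values.

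The inner membrane proteins did not move as 1 set. Lbr encodes lamin B receptor, which binds B-type lamins and heterochromatin and is also a sterol reductase. Tmpo encodes the LAP2 proteins, of which LAP2β sits in the inner membrane and binds B-type lamins, whereas LAP2α is soluble in the nucleoplasm and binds A-type lamins. The upstream 250 bases of both genes (RefSeq promoters, GRCm38.p6, 5' to 3' on the minus strand) are shown because the siRNA moved them in opposite directions under vehicle. Capitals mark matches to CCAAT or its complement ATTGG (the NF-Y motif) and to TTTGAA or TTCAAA (the CHR motif of cell cycle genes).
Lbr, chr1:181842402-181842651: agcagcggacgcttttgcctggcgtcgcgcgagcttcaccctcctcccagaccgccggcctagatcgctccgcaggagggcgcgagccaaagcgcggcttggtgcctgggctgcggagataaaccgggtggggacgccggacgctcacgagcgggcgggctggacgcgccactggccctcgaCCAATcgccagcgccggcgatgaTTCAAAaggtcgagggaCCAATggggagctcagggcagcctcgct
Tmpo, chr10:91171620-91171869: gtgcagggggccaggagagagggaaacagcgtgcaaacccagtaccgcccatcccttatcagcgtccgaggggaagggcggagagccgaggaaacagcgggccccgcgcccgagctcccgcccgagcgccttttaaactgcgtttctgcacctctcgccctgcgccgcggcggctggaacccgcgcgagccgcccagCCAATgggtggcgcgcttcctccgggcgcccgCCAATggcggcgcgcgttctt

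Both hold CCAAT at 2 places in these windows, as do 9.91% of 32851 mouse promoters, and Lbr holds the CHR letters once, as do 16% of promoters. RefSeq lists another Tmpo start, whose window (chr10:91170551-91170800) holds the CHR, E2F and TEAD letters once each and no CCAAT. The letters of the E2F motif (TTTGGCGC or TTTCCCGC), of TEAD (CATTCC), of SMAD (GTCTAGAC) and of the CArG box of SRF, read on both strands, were in neither of the windows shown, and 1.3%, 12.6%, 0.167% and 1.47% of promoters hold them. GGGCGG of SP1 was once in the Lbr and 4 times in the Tmpo window, with 32.7% of promoters holding it. A match is a run of letters and not a bound site.

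Lbr, on chromosome 1 from 181815335 to 181843046, had counts of 1112.6, 1100.7 and 928.2 in H1.0 siRNA with TGF-β, 1189.1, 1124.6 and 1314.7 in H1.0 siRNA with vehicle, 925.4, 930.7 and 979.4 in scramble with TGF-β, and 567.4, 589.4 and 671.8 in scramble with vehicle. The 3 H1.0 siRNA libraries with vehicle were the highest of the 12, the 3 scramble libraries with vehicle were the lowest, and both TGF-β groups lay between and overlapped. Under vehicle Lbr rose with the siRNA by a log2 fold change of 0.99 (SE 0.09, adjusted p = 1.7e-05). Under TGF-β the difference was 0.15 (SE 0.09, adjusted p = 0.25), not called. TGF-β gave -0.21 (SE 0.09, adjusted p = 0.11) in H1.0 siRNA cells, not called, and Lbr rose in scramble cells (0.63, SE 0.09, adjusted p = 0.0006). The 2 Lbr calls held without any 1 library. Lbr-201, the full-length transcript of 626 codons, rose in the same 2 comparisons of the transcript fit (1.07, SE 0.1, adjusted p = 0.00027 for the siRNA and 0.7, SE 0.1, adjusted p = 0.0054 for TGF-β).

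For Lbr the effect of one treatment differed with the other by -0.84 (SE 0.13) on the log2 scale. That interaction had an adjusted p of 0.028 and was not called, with an adjusted p of 0.0086 with the replicate block and 3.6e-06 by DESeq2. Lbr had the lowest interaction p of the 10 genes. By edgeR 0 of the 10 genes had a called interaction, where 0.0444% of all genes were called. The replicate block called 1, Lbr, against 0.655% of all genes, and DESeq2 called 1 and limma-voom 0. At an unadjusted p under 0.05 there were 2, Lbr and Syne1, as for 11.9% of all genes.

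Emerin, from Emd on the X chromosome (74254687 to 74261548), binds lamin A and actin. Its counts were 1171.5, 1241.1 and 1104.5 in H1.0 siRNA with TGF-β, 1063.2, 1001.4 and 1091.4 in H1.0 siRNA with vehicle, 1201.8, 1225.8 and 1301.7 in scramble with TGF-β, and 948.6, 979.1 and 1064.8 in scramble with vehicle. Both TGF-β groups were above both vehicle groups, and the siRNA groups overlapped within either medium. Emd rose with TGF-β in scramble cells (0.32, SE 0.07, adjusted p = 0.0054), and the value in H1.0 siRNA cells was 0.16 (SE 0.07, adjusted p = 0.12). The call was lost without any 1 of 5 of the 6 scramble libraries, the exception being replicate 3 with vehicle (adjusted p up to 0.025). It was lost too with an offset for transcript length (0.26, adjusted p = 0.041), with protein-coding transcripts alone (0.013) and with the 6 scramble libraries alone (0.016). The siRNA differences were -0.08 (SE 0.07, adjusted p = 0.39) with TGF-β and 0.08 (SE 0.07, adjusted p = 0.43) with vehicle.

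Tmpo, on chromosome 10 from 91147571 to 91181315, had counts of 1510.6, 1280.4 and 1057.1 in H1.0 siRNA with TGF-β, 2918.8, 2804.3 and 1918.1 in H1.0 siRNA with vehicle, 3468.9, 3404.3 and 3044.8 in scramble with TGF-β, and 6290.6, 5244.1 and 3890.9 in scramble with vehicle. None of the 4 groups overlapped another, and within each group replicate 3 was lowest. Tmpo fell with the siRNA, to 1280 ± 227 in H1.0 siRNA with TGF-β against 3310 ± 229 in scramble with TGF-β, and to 2550 ± 548 in H1.0 siRNA with vehicle against 5140 ± 1200 in scramble with vehicle (SD, n = 3 each). The log2 fold changes were -1.37 (SE 0.2, adjusted p = 0.00029) with TGF-β and -1.01 (SE 0.2, adjusted p = 0.0019) with vehicle. These 2 calls held without any 1 library.

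TGF-β lowered Tmpo in H1.0 siRNA cells, with a log2 fold change of -0.99 (SE 0.2, adjusted p = 0.0036). In scramble cells it was -0.64 (SE 0.19, adjusted p = 0.028) and not called, though the adjusted p was 0.00023 with the block, 0.0069 by DESeq2 and 0.0082 without replicate 3 of scramble with vehicle. The H1.0 siRNA call was lost without replicate 1 or 2 of H1.0 siRNA with vehicle or replicate 2 or 3 of H1.0 siRNA with TGF-β (adjusted p up to 0.017), and with the 6 H1.0 siRNA libraries alone (0.013). It was called with the block (1e-05). The direction was the same in all 3 replicate pairs of either siRNA.

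LAP2β (Tmpo-202, 452 codons) was at 12.4, 9.53 and 6.62 TPM in H1.0 siRNA with TGF-β, 23.4, 22.3 and 12.8 TPM in H1.0 siRNA with vehicle, 35.7, 32.4 and 28.6 TPM in scramble with TGF-β, and 63.1, 56.9 and 39.8 TPM in scramble with vehicle. The groups did not overlap, and both H1.0 siRNA groups were below both scramble groups. LAP2α (Tmpo-201, 693 codons) was at 6.37, 5.15 and 4.95 TPM in H1.0 siRNA with TGF-β, 9.68, 10.8 and 7.75 TPM in H1.0 siRNA with vehicle, 10.2, 12.8 and 10.5 TPM in scramble with TGF-β, and 18.6, 18.3 and 11.5 TPM in scramble with vehicle, lowest in H1.0 siRNA with TGF-β. Under TGF-β the siRNA lowered Tmpo-202 (-1.69, SE 0.27, adjusted p = 0.0043) and Tmpo-208 (-1.4, SE 0.26, adjusted p = 0.0097), a retained-intron transcript without coding bases. The value for Tmpo-201 there was -0.95 (SE 0.18, adjusted p = 0.013), called with the replicate block (0.0067). Under vehicle the value for Tmpo-202 was -1.38 (SE 0.26, adjusted p = 0.011), called with the block (0.00039). With TGF-β in H1.0 siRNA cells Tmpo-202 had -0.95 (SE 0.26, adjusted p = 0.088), called with the block (0.0026). The ratio of LAP2β to LAP2α was 1.34 to 1.95 in H1.0 siRNA with TGF-β, 1.65 to 2.41 in H1.0 siRNA with vehicle, 2.52 to 3.51 in scramble with TGF-β and 3.11 to 3.45 in scramble with vehicle, so that all 6 H1.0 siRNA libraries were below all 6 scramble libraries. This ratio was not tested.

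**Figure D4:**
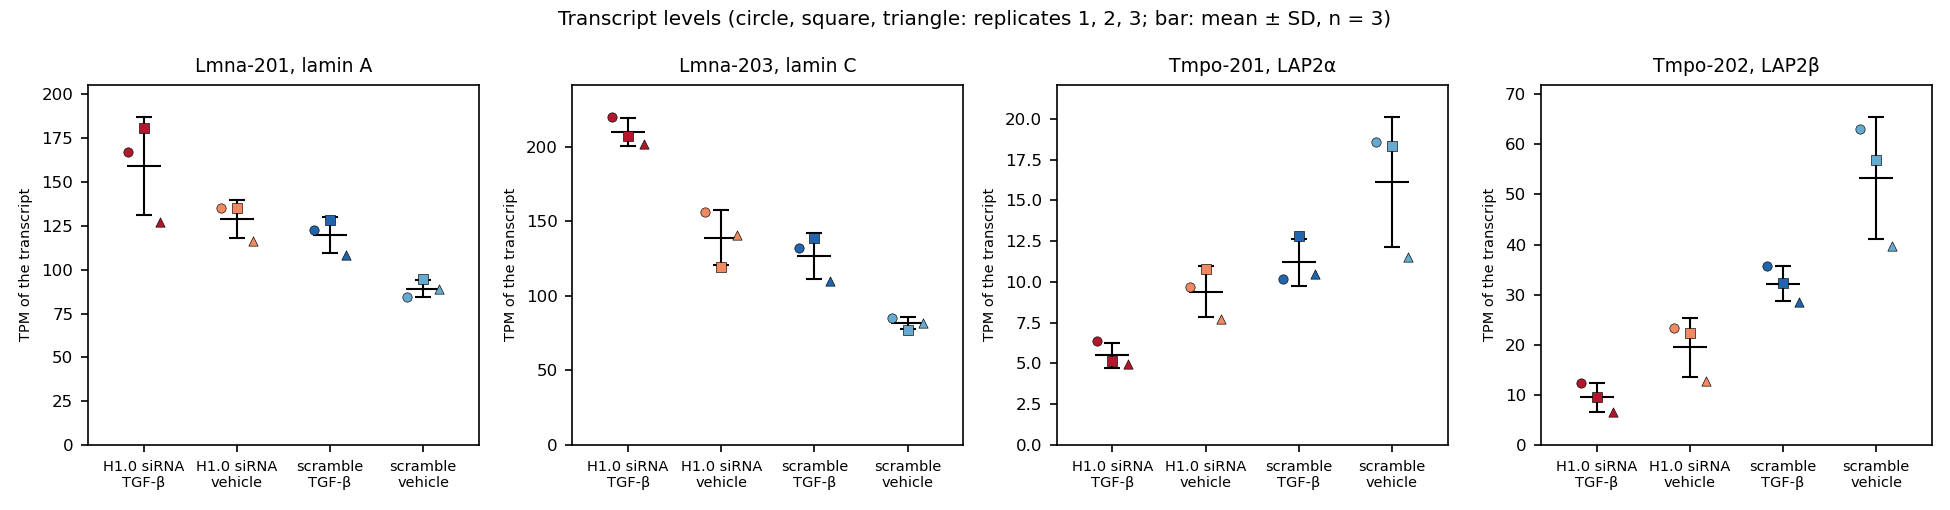
TPM (y axes, from 0) of the transcripts of lamin A, lamin C, LAP2α and LAP2β in the 4 groups (x axes), with replicates 1, 2 and 3 as circle, square and triangle and the mean ± SD (n = 3) as a bar. Lamin C is at 201.7 to 219.9 TPM in H1.0 siRNA with TGF-β, against 77.4 to 85.3 TPM in scramble with vehicle, and LAP2β is at 6.62 to 12.4 TPM against 39.8 to 63.1 TPM in the same groups.

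Genes of DNA replication and mitosis moved with the siRNA beside these results. Of 34 such genes the siRNA lowered 34 under TGF-β and 30 under vehicle (median log2 fold change -2.11 and -1.24, beside 0.04 and 0 over all genes). Of all genes 24.3% and 24.7% were called there, in either direction. Their summed level was 323 to 385 TPM in H1.0 siRNA with TGF-β, 344 to 474 TPM in H1.0 siRNA with vehicle, 1220 to 1450 TPM in scramble with TGF-β and 783 to 1050 TPM in scramble with vehicle. Cdkn1a, the cyclin-dependent kinase inhibitor p21, rose with the siRNA (log2 fold change 1.19, SE 0.13, adjusted p = 3.3e-05 with TGF-β and 1.46, SE 0.13, adjusted p = 1e-05 with vehicle). It is 1 of 10 listed inhibitor and senescence genes. Of these the siRNA raised 3 and lowered 1 with TGF-β (24.3% of all genes called) and raised 2 and lowered 1 with vehicle (24.7%). TGF-β raised 3 and lowered 3 in H1.0 siRNA cells (15.7% of all genes called) and raised 1 and lowered 3 in scramble cells (18.4%). The part of these genes in the siRNA differences of Lmnb2, Tmpo and the other lamina genes was not tested. That of the fibroblast, macrophage, mural cell and cardiomyocyte markers in the siRNA and TGF-β differences was not tested either. TGF-β called 11 of the 34 higher and 0 lower in scramble cells, and 2 higher and 1 lower in H1.0 siRNA cells, against 18.4% and 15.7% of all genes.

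SUN1 and SUN2 form trimers that bind nesprins in the perinuclear space and lamin A in the nucleus. Sun1, on chromosome 5 from 139200637 to 139249840, had counts of 2191.7, 2206.0 and 2306.8 in H1.0 siRNA with TGF-β, 2119.7, 2243.2 and 2336.7 in H1.0 siRNA with vehicle, 2160.1, 1804.9 and 2067.7 in scramble with TGF-β, and 1851.5, 1857.7 and 1762.4 in scramble with vehicle. The H1.0 siRNA libraries were above those of scramble in either medium, without overlap. Under vehicle Sun1 rose with the siRNA (0.29, SE 0.07, adjusted p = 0.0071), and the value with TGF-β was 0.15 (SE 0.07, adjusted p = 0.12). The call was lost without any 1 of 8 libraries, which are the 3 of scramble with vehicle, replicates 2 and 3 of H1.0 siRNA with vehicle, replicate 3 of scramble with TGF-β and replicates 1 and 2 of H1.0 siRNA with TGF-β (adjusted p up to 0.028). It was lost too with the 6 libraries of the comparison alone (0.017), with protein-coding transcripts alone (0.012), with size factors of DESeq2 (0.01) and with an offset for transcript length (0.01). The TGF-β differences of Sun1 were 0 (SE 0.07, adjusted p = 1) in H1.0 siRNA cells and 0.14 (SE 0.07, adjusted p = 0.16) in scramble cells.

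Sun2, on chromosome 15 from 79724070 to 79742536, had counts of 1223.5, 1229.5 and 1311.8 in H1.0 siRNA with TGF-β, 1437.5, 1354.2 and 1537.3 in H1.0 siRNA with vehicle, 1094.8, 1156.8 and 1358.4 in scramble with TGF-β, and 1672.9, 1496.6 and 1559.8 in scramble with vehicle. Within either siRNA the TGF-β libraries were below the vehicle libraries without overlap. Sun2 fell with TGF-β in scramble cells (-0.39, SE 0.09, adjusted p = 0.0056), and the value in H1.0 siRNA cells was -0.2 (SE 0.09, adjusted p = 0.1). That call was lost without any 1 of 6 libraries, which are the 3 of scramble with vehicle, replicates 1 and 2 of scramble with TGF-β and replicate 1 of H1.0 siRNA with vehicle (adjusted p up to 0.028), and with the 6 scramble libraries alone (0.021). The siRNA differences were 0.06 (SE 0.09, adjusted p = 0.64) with TGF-β and -0.13 (SE 0.09, adjusted p = 0.28) with vehicle. The ratio of Sun1 to Sun2 in TPM was 1.85 to 2.05 in H1.0 siRNA with TGF-β, 1.75 to 1.98 in H1.0 siRNA with vehicle, 1.66 to 2.34 in scramble with TGF-β and 1.19 to 1.28 in scramble with vehicle. Scramble with vehicle was below the 9 other libraries in this ratio, which was not tested.

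Nesprins are the outer side of the LINC complex, and the giant forms of nesprin-1 (Syne1) and nesprin-2 (Syne2) bind actin through calponin homology domains. Syne1, on chromosome 10 from 5020917 to 5551482, had counts of 2239.8, 2367.9 and 2206.6 in H1.0 siRNA with TGF-β, 1899.4, 1998.2 and 1708.9 in H1.0 siRNA with vehicle, 3311.3, 3630.4 and 3016.4 in scramble with TGF-β, and 3982.8, 3392.7 and 3204.3 in scramble with vehicle. Both H1.0 siRNA groups were below both scramble groups, and the scramble groups overlapped. Syne1 fell with the siRNA (-0.55, SE 0.1, adjusted p = 0.00099 with TGF-β and -0.92, SE 0.1, adjusted p = 3.3e-05 with vehicle), and neither call was lost without any 1 library or in an alternative processing. TGF-β gave 0.28 (SE 0.1, adjusted p = 0.046) in H1.0 siRNA cells, without overlap of the groups and with an adjusted p of 0.0081 under the replicate block. In scramble cells it gave -0.09 (SE 0.1, adjusted p = 0.53).

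The transcript of giant nesprin-1 (26397 coding bases) was at 4.53, 4.8 and 4.28 TPM in H1.0 siRNA with TGF-β, 4.04, 4.34 and 3.39 TPM in H1.0 siRNA with vehicle, 7.08, 8.1 and 6.14 TPM in scramble with TGF-β, and 8.88, 7.3 and 6.82 TPM in scramble with vehicle. It made up between 38% and 46.7% of Syne1 transcripts by TPM in every library, so that its level went with that of the gene. Under vehicle it fell with the siRNA (-0.89, SE 0.11, adjusted p = 0.0012), as did a short Syne1 form of 949 codons (-1.24, SE 0.2, adjusted p = 0.0045). With TGF-β the giant transcript had -0.57 (SE 0.11, adjusted p = 0.014), called with the replicate block (0.0047). The share of that short form was 12.4% to 14.3% in H1.0 siRNA with TGF-β, 14.7% to 17.2% in H1.0 siRNA with vehicle, 13% to 20% in scramble with TGF-β and 19.2% to 21.7% in scramble with vehicle.

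Syne2, on chromosome 12 from 75818134 to 76110926, had counts of 2949.7, 3435.4 and 3782.5 in H1.0 siRNA with TGF-β, 3435.8, 4098.1 and 3394.8 in H1.0 siRNA with vehicle, 3511.2, 4184.7 and 3615.6 in scramble with TGF-β, and 6295.0, 4359.4 and 3468.4 in scramble with vehicle. All groups overlapped, and replicate 1 of scramble with vehicle was the highest of the 12 libraries. The siRNA differences were -0.15 (SE 0.18, adjusted p = 0.57) with TGF-β and -0.37 (SE 0.18, adjusted p = 0.14) with vehicle. TGF-β gave -0.1 (SE 0.18, adjusted p = 0.73) in H1.0 siRNA cells and -0.32 (SE 0.18, adjusted p = 0.21) in scramble cells. Without replicate 1 of scramble with vehicle, the siRNA difference with vehicle was -0.11 and the TGF-β difference in scramble cells -0.06. The ratio of Syne2 to Syne1 in TPM was 2.03 ± 0.225 in H1.0 siRNA with TGF-β, 2.47 ± 0.265 in H1.0 siRNA with vehicle, 1.54 ± 0.109 in scramble with TGF-β and 1.62 ± 0.44 in scramble with vehicle (SD, n = 3 each). Giant nesprin-2 (20610 coding bases) held 38.9% to 52.6% of Syne2 transcripts.

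By level per length the order of the 10 genes was not the same in each group. In H1.0 siRNA with TGF-β the mean TPM was 382 for Lmna, 65.1 for Emd, 47.4 for Sun1, 34.5 for Tmpo, 25.7 for Lbr, 24.6 for Sun2, 21.9 for Syne2, 12.2 for Lmnb1, 10.7 for Syne1 and 8.4 for Lmnb2. Tmpo and Lbr, Lbr and Sun2, and Lmnb1 and Syne1 did not differ beyond their spread in that group. In scramble with vehicle Lmna, at 177 ± 1.22 TPM, overlapped Tmpo, at 147 ± 35 TPM (SD, n = 3 each), and then came Emd (59.8), Sun1 (42.8), Sun2 (34.3), Syne2 (31), Syne1 (19), Lbr (16.5), Lmnb1 (12.9) and Lmnb2 (8.68). Sun2 and Syne2, Syne2 and Syne1, and Syne1 and Lbr overlapped there. Tmpo was thus the fourth in H1.0 siRNA with TGF-β and the second in scramble with vehicle, and Lbr the fifth and the eighth. In the other 2 groups Lmna was again highest and Lmnb2 lowest. Counting protein-coding transcripts alone gave levels from 83.9% to 121% of these.

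Other genes of the envelope were taken from lists. Of 14 further lamina and inner membrane genes 13 were tested. The siRNA gave 4 higher and 1 lower under TGF-β and 5 higher and 1 lower under vehicle (median log2 fold change 0.11 and 0.21). Of all genes tested 24.3% and 24.7% were called in these comparisons. Tor1aip1, the lamina-associated polypeptide LAP1 that activates torsin, fell to 2310 ± 591 in H1.0 siRNA with TGF-β against 4880 ± 736 in scramble with TGF-β and to 2340 ± 487 in H1.0 siRNA with vehicle against 5260 ± 458 in scramble with vehicle (SD, n = 3 each). Its log2 fold changes were -1.08 (SE 0.2, adjusted p = 0.0014) and -1.17 (SE 0.2, adjusted p = 0.00084). Nemp1, an inner membrane protein that stiffens the envelope, rose with the siRNA (0.93, SE 0.14, adjusted p = 0.00033 with TGF-β and 1.38, SE 0.14, adjusted p = 2.4e-05 with vehicle). So did Tor1b, a torsin ATPase (0.63 and 0.66, SE 0.07 each), and Tmem43, the membrane protein LUMA, which binds emerin and lamins (0.6 and 0.66, SE 0.1 each).

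TGF-β raised 4 of these 13 genes in scramble cells, among them Banf1, which bridges DNA to LEM domain proteins such as emerin (0.51, SE 0.08, adjusted p = 0.0011), and Lemd3, the LEM domain protein MAN1 that binds SMADs (0.44, SE 0.07, adjusted p = 0.0007). In H1.0 siRNA cells it raised Lemd3 (0.34, SE 0.07, adjusted p = 0.0032) and lowered Nemp1 (-0.63, SE 0.13, adjusted p = 0.0047). With TGF-β 18.4% of all genes were called in scramble cells and 15.7% in H1.0 siRNA cells. The replicate block called 4 of the 13 higher and 2 lower in H1.0 siRNA cells, against 26.8% of all genes. The median log2 fold change of the list with TGF-β was 0.01 in H1.0 siRNA cells and 0.11 in scramble cells.

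The 5 enzymes that process the CaaX box, which finish lamin A and the B-type lamins, were all tested. TGF-β raised 3 in scramble cells, namely the farnesyltransferase subunit Fntb (0.46, SE 0.08, adjusted p = 0.0018), the protease Zmpste24 that matures lamin A (0.37, SE 0.09, adjusted p = 0.0085) and the methyltransferase Icmt (0.34, SE 0.07, adjusted p = 0.0026), and 1 in H1.0 siRNA cells, Fntb (0.38, SE 0.08, adjusted p = 0.0051). The siRNA raised Icmt (0.32, SE 0.07, adjusted p = 0.003 with TGF-β and 0.57, SE 0.07, adjusted p = 6.5e-05 with vehicle). Of all genes 24.3% and 24.7% were called for the siRNA (TGF-β and vehicle), and 15.7% and 18.4% for TGF-β (H1.0 siRNA and scramble cells). The medians of these enzymes were 0.11 and 0.16 for the siRNA (TGF-β and vehicle) and 0.16 and 0.34 for TGF-β (H1.0 siRNA and scramble cells). Of 10 other LINC genes and cytoplasmic partners 8 were tested. Klc1, a light chain of kinesin-1, which giant nesprins recruit, rose with the siRNA (0.42, SE 0.07, adjusted p = 0.00063 with TGF-β and 0.56, SE 0.07, adjusted p = 0.0001 with vehicle). Bicd2, a dynein adaptor of the envelope, rose with TGF-β in scramble cells (0.33, SE 0.07, adjusted p = 0.0057). In H1.0 siRNA cells TGF-β called 0 of the 8, against 15.7% of all genes, and the block called 4, against 26.8%. Medians of the linkers were 0.06 and -0.04 for the siRNA (TGF-β and vehicle) and 0.05 and -0.04 for TGF-β (H1.0 siRNA and scramble cells).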

How the data were processed

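RNA of 12 libraries (4 groups of 3) was quantified by the authors with Salmon on an Ensembl-based mm10 index, and the deposited tables hold an estimated count and a TPM value for each of 117135 transcripts. GENCODE M21 (GRCm38), not the authors' Ensembl release, named the genes: 115973 transcripts matched by ID without version and 1162 did not, and matched transcripts held 99.54% to 99.6% of counts. Library totals were 19.9 M to 36.3 M (median 24.2 M). Estimated counts were summed per gene and rounded. edgeR 4.0.16 (R 4.3.3) tested genes reaching 10 counts summed over all 12 libraries, with TMM factors, 1 model of 4 groups, quasi-likelihood F tests and Benjamini-Hochberg adjustment over all genes, and a call at an adjusted p under 0.01. The SE was derived from the fold change and F, and intervals are approximate. Normalized counts are TMM CPM scaled to the mean library total. Deposited TPM values were summed per gene for levels between genes. The fit was tested on simulated data.

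Same-numbered libraries deviated together from their group means (Pearson r 0.25 to 0.67 over 11453 genes in 18 pairs, against -0.6 to 0.3 in 36 pairs of different number). These ranges overlap slightly. Deviations from a group mean sum to 0 within the group, so the second range is not independent of the first. The sample titles give a number without saying that it pairs samples. The main fit used no pairing, and the block by number is an alternative. Replicates differed by more than counting noise (chi-square 9.41 to 69.27 per degree of freedom). The study's methods call them biological replicates, which the study defines as different animals or separate isolations of cells, without saying which applies here. All 10 genes are described. Of the other lists, up to 3 called genes per list, comparison and direction were named by size of fold change where the higher group averaged 100 counts or more. A likeness result and a coding stretch are not reported here. The members and lists were chosen with earlier results of these data known. Alternatives were DESeq2 1.42.0, limma-voom (limma 3.58.1), other size factors and filters, a replicate block, a length offset, protein-coding transcripts alone, thinned libraries, the 6 libraries of a comparison alone and each library left out.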

Additional observations from a re-analysis of the deposited data

Results flagged for a closer look

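Lbr, the lamin B receptor, was singled out on 2 counts that rest on 1 value. The effect of TGF-β on Lbr in H1.0 siRNA cells less that in scramble cells was -0.84 on the log2 scale (SE 0.13, approximate 95% interval -1.1 to -0.59), and TGF-β moved Lbr down in every replicate pair of H1.0 siRNA cells and up in every pair of scramble cells. Equally, the effect of the siRNA in TGF-β-treated cells less that in vehicle-treated cells was -0.84. The adjusted p was 0.028 by edgeR, which was not called, 0.0086 with the replicate block and 3.6e-06 by DESeq2, with a range from 3.6e-06 to 0.1 over the alternatives.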

How the results depend on the processing

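Of 50 pairs of gene and comparison 38 kept their side of the threshold under every alternative run for them (23, less the 6-library fit for the interaction). None of the 18 calls changed sign, whereas some uncalled values near 0 did, such as Lmnb1 with TGF-β in H1.0 siRNA cells (-0.16 to 0.21 without 1 library). Of these calls, 7 were lost without 1 library. Among those 7 were all 5 that were lost in an alternative that left out no library. With the 6 libraries of the comparison alone, TGF-β called 1548 of all genes in H1.0 siRNA cells (2838 in the fit of all libraries) and 3 of the 10 genes in scramble cells (5 in that fit). The interaction, with 8 of all genes called, had 239 by DESeq2, 4 by limma-voom, 1 with the length offset and 0 with protein-coding transcripts alone, where the cause was not tested. DESeq2 called 1 of the 10 genes there. A stricter filter (CPM of at least 1 in at least 3 libraries) called 2 transcripts of these genes with TGF-β in H1.0 siRNA cells and 6 for the siRNA under TGF-β, against 0 and 3. No scaling moved the median of all genes by more than 0.08.

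With the replicate numbers as a block (pairing), TGF-β called 4825 of all genes in H1.0 siRNA cells and 5125 in scramble cells, and the interaction 118. Among the 10 genes the block called 1 interaction, Lbr, and added Lmnb1 for the siRNA under TGF-β, Syne1 with TGF-β in H1.0 siRNA cells, and Lmnb1 and Tmpo with TGF-β in scramble cells. Of their transcripts it called 2 with TGF-β in H1.0 siRNA cells and 6 for the siRNA under TGF-β. It changed no other call among the 10 genes.

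Leaving out 1 library gave 3231 to 4468 of all genes called for the siRNA with TGF-β, 3325 to 4656 for the siRNA with vehicle, 1589 to 2884 for TGF-β in H1.0 siRNA cells (over 1.5 times fewer without replicate 1 or 2 with vehicle or 3 with TGF-β), 1871 to 3597 for TGF-β in scramble cells (likewise without replicate 1 or 2 with vehicle or 2 or 3 with TGF-β) and 0 to 12 for the interaction. For the 10 genes these ranges were 3 to 5, 5 to 6, 1 to 3 (1 without replicate 2 of H1.0 siRNA with vehicle), 2 to 6 (2 without replicate 1 or 2 of scramble with TGF-β or of scramble with vehicle) and 0 to 0.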

Other observations

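Nuclear pore genes, whose products sit in the same envelope, were read against the share of all genes called. Of 29 listed 28 were tested. With the siRNA 4 rose and 2 fell under TGF-β, and 13 rose and 3 fell under vehicle (median log2 fold change -0.08 and 0.16), where 24.3% and 24.7% of all genes were called, so that 6 of 28 under TGF-β was near that share. TGF-β raised 3 in H1.0 siRNA cells and 18 in scramble cells and lowered 0 in either (median 0.16 and 0.32), where 15.7% and 18.4% of all genes were called. The replicate block called 8 higher and 1 lower in H1.0 siRNA cells, against 26.8% of all genes. Nup153, a basket nucleoporin that binds lamins, fell to 1410 ± 86.3 in H1.0 siRNA with TGF-β against 3330 ± 81.2 in scramble with TGF-β and to 1040 ± 49.1 in H1.0 siRNA with vehicle against 2600 ± 117 in scramble with vehicle (SD, n = 3 each). Seh1l, of the Y complex, rose with the siRNA (log2 fold change 0.86 and 0.96, SE 0.06 each), as did Aaas, the nucleoporin aladin (0.7 and 1.08, SE 0.09 each). Sec13, shared by the Y complex and the COPII coat, rose with TGF-β (0.61 in H1.0 siRNA cells and 0.81 in scramble cells, SE 0.1 each).

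Patterns over the 12 libraries were compared with those of all other genes of sufficient count. Among 10986 genes the highest Pearson correlation of log2(CPM + 1) was with Fstl1 for Lmna (0.988), Mfge8 for Lmnb1 (0.942), S100a11 for Lbr (0.96), Polr2l for Emd (0.948), Dock10 for Tmpo (0.99), Mrps27 for Sun1 (0.946), Zmym6 for Sun2 (0.945), Col27a1 for Syne1 (0.986) and Wdfy3 for Syne2 (0.94). The libraries share their 4 groups, so these values are a description. The highest correlation between 2 of the 10 genes was 0.79, for Lbr and Sun1.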
